A study of Homo sapiens with 4 samples.

Results

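The BCL2 family of apoptosis regulators was examined as 10 genes selected by symbol, out of 19192 genes counted, in 2 lines derived from SW480, an established human cell line from a colorectal adenocarcinoma. Members were the guardians BCL2L1 and MCL1, the pore formers BAX and BAK1, the BH3-only genes BID and BAD, the BNIP genes BNIP1 and BNIP3L, and the relatives BCL2L12 and BCL2L15. Both lines carried LIN28B overexpression (LIN28B OE), and the second was also labelled as an IMP1 (IGF2BP1) knockout. LIN28B is an RNA-binding protein that blocks let-7 microRNA maturation, and IMP1 is an RNA-binding protein that acts on the stability, localisation and translation of mRNAs. Each line gave 1 RNA library and 1 ribosome footprint library, with material from 3 culture plates combined before sequencing, and whether a line is a single clone is not given in the sources used here. One RNA library carries SW840 in its cell line field and SW480 in its source field, and was used as SW480.

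The libraries held 2732760 (OE-labelled footprints), 3260262 (knockout-labelled footprints), 5429224 (OE-labelled RNA) and 6813372 (knockout-labelled RNA) counts. With a single library per line and assay there is no replicate check and no p-value, and all intervals are 95% intervals that cover counting error only. The knockout label was not borne out by its target: IGF2BP1 had 840 and 1974 RNA counts and 332 and 821 footprint counts in the OE-labelled and knockout-labelled libraries, while LIN28B had 1205 and 303 RNA counts and 190 and 46 footprint counts. Ratios below are therefore between libraries with these labels. Of 10 colon epithelial markers, 7 were measured in mRNA, and KRT20, CDX1 and LGALS4 were at 0 in all 4 libraries. The summed marker level was 10026 CPM (counts scaled to the library total) in OE-labelled RNA and 5160 CPM in knockout-labelled RNA, most of it KRT8 (3372 and 1573 CPM) and KRT18 (5676 and 2868 CPM), and its part in the results was not tested. CDH1 was higher in the knockout-labelled line, by 0.89 (log2) in mRNA and 1.11 in footprints. Markers of blood cells summed to 12.5 and 24.7 CPM in RNA, nearly all of it CD68 (10.7 and 23.9 CPM), with PTPRC at 0. Markers of fibroblasts, endothelium and muscle summed to 22.8 and 37.4 CPM in RNA, most of it the muscle marker DES (18.6 and 22.9 CPM). COL1A2 was at 0, while COL1A1 had 2 and 55 RNA counts and 0 and 57 footprint counts. In bulk samples, fewer cells of a kind and less RNA per cell cannot be told apart.

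BCL2 family proteins meet at the outer mitochondrial membrane. Guardians such as BCL-XL and MCL1 hold the pore formers BAX and BAK inactive, and BH3-only proteins bind guardians or pore formers through a short helix, the BH3 segment. When BAX and BAK assemble, cytochrome c leaves the mitochondria and caspases are activated. Colorectal cancer cells are known to lean on BCL-XL and MCL1 for survival. Several relatives work mainly elsewhere: the product of BNIP3L is a receptor for the removal of mitochondria by autophagy, and that of BNIP1 is a SNARE of transport from the Golgi to the endoplasmic reticulum.

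The BH3 segment is a sequence that part of the family shares, and its coding bases are shown for the 8 members in which it was located. Each stretch has 45 bases of the transcript listed in the count files, taken 5′ to 3′ from GENCODE release 29 (GRCh38). Capitals mark 18 bases, the codons for leucine, 3 residues of any kind, glycine and aspartate, and in BAD serine stands in place of glycine.
BCL2L1: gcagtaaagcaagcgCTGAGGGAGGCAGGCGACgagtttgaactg
MCL1: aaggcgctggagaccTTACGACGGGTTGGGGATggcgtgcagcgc
BAX: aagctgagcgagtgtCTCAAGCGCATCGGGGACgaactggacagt
BAK1: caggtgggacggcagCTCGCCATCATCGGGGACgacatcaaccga
BID: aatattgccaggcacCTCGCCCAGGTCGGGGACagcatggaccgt
BAD: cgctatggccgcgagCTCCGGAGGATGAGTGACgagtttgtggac
BCL2L15: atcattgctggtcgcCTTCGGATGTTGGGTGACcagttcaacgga
BNIP1: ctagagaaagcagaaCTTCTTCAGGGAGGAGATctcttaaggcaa

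The glycine form of the pattern occurred once in each of the other 7 members shown, and in 7.4% of the 7116 listed coding sequences of 150 to 400 codons. BCL2L12 and BNIP3L held no match to it. The stretches lie within single exons, at chr20:31721922-31721966 on the minus strand for BCL2L1, chr1:150578865-150578909 (minus) for MCL1, chr19:48955772-48955816 (plus) for BAX and chr6:33575387-33575431 (minus) for BAK1. For the others they are at chr22:17739415-17739459 (minus) for BID, chr11:64271622-64271666 (minus) for BAD, chr1:113886588-113886632 (minus) for BCL2L15 and chr5:173158799-173158843 (plus) for BNIP1.

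Levels were compared between genes as CPM per kilobase of coding sequence. BCL2L1 had the highest level of the 10 in every library, at 655 and 570 in OE-labelled and knockout-labelled RNA and 663 and 605 in footprints. MCL1 stood at 191 and 310 in RNA and at 200 and 205 in footprints, so that in knockout-labelled RNA it was second, apart from BNIP3L at 119, whereas in OE-labelled RNA its interval overlapped that of BNIP3L at 194. BAX and BID had overlapping footprint intervals in both lines, at 103 and 100 in the OE-labelled library and 147 and 146 in the knockout-labelled library. BAK1 had 40.8 and 93.0 in RNA, next to BAD at 42.5 in the OE-labelled library and to BAX at 78.1 in the knockout-labelled library, with overlapping intervals each time. At the low end of OE-labelled RNA, BAD, BAK1, BCL2L15, BNIP1 and BCL2L12 formed a run from 42.5 to 27.5 in which each interval overlapped that of its neighbour. In knockout-labelled RNA, BCL2L15 stood alone at 3.28 (1.64 to 5.87), below BNIP1 at 21.4. The part of the transcript that was counted is not known, and with the full transcript length as divisor BCL2L1 was still the highest in OE-labelled RNA, followed by BAX, BID and MCL1 in that order. In footprints per kilobase of transcript, MCL1 (53.5 and 54.9) likewise lay below BAX (75.2 and 107) and BID (84.2 and 122).

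**Figure D1:**
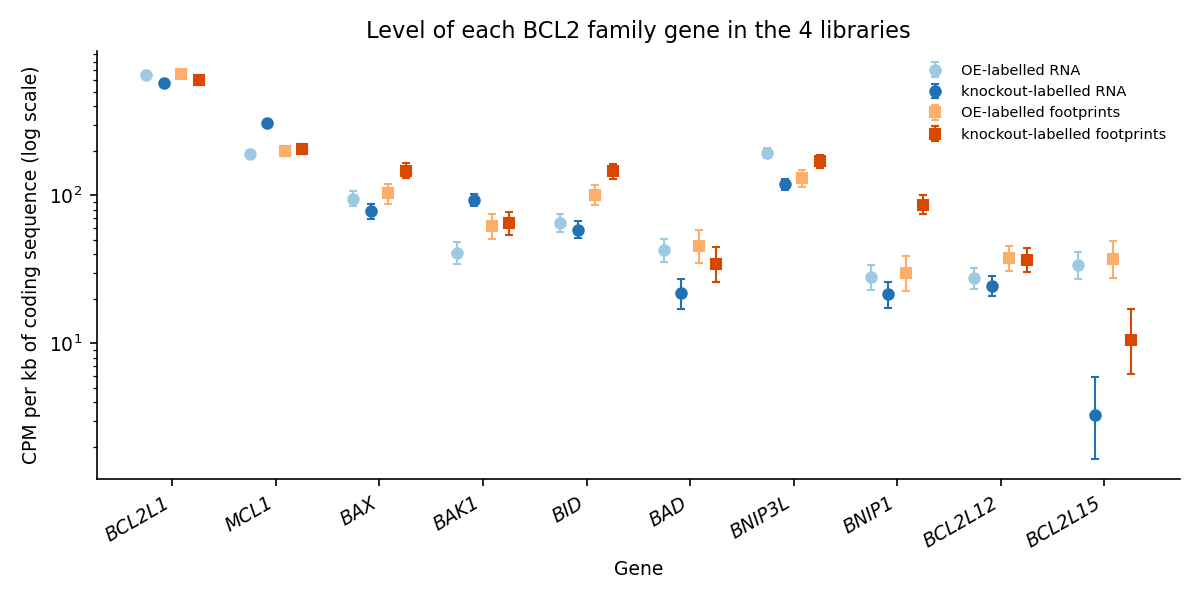
Level of each member in each library, in CPM per kilobase of coding sequence on a log axis, with exact Poisson 95% intervals. BCL2L1 is the highest gene in all 4 libraries, and BCL2L15 drops to 3.28 in knockout-labelled RNA.

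Between the lines, the mRNA interval lay below 0, toward the OE-labelled library, for 6 of the 10 members (27.3% of all measured genes) and above 0 for 2, MCL1 and BAK1 (28.5%). BID and BCL2L12 had intervals that hold 0. Genes averaging 50 counts or more in an assay were taken as measured, and those 1.5-fold or more apart after trimmed-mean (TMM) scaling were counted. In mRNA all 10 members were measured. BAK1 was past 1.5-fold upward (10.5% of all measured genes were) and BAD, BCL2L15 and BNIP3L were past it downward (also 10.5%), so 4 of 10 were past it either way, beside 21.0% of 9855 genes. BCL2L15 was measured only through its count in the OE-labelled library, and without it 3 of 9 members were past 1.5-fold and 2 past 2-fold. In footprints 1 of 9 was past 1.5-fold, BNIP1, which was higher (15.0% of genes were), and 0 were lower (14.1%), together 11.1% beside 29.0% of 7323 genes. Translational efficiency divides the footprint ratio by the mRNA ratio. It was higher by 1.5-fold or more for 5 of 9 members (13.4% of genes) and lower for 1 (12.9%), together 66.7% beside 26.3% of 7260 genes. Relatives outside the 10 members did not share this: 1 of 5 measured BH-domain relatives was past 1.5-fold in efficiency, upward, with a list median of 0.03. Of 3 other measured BH3-only and BNIP genes 0 were past it, with a median of -0.01. At 2-fold, 3 members were counted in mRNA (6.48% of genes), 1 in footprints (9.09%) and 3 in efficiency (7.25%). The median log2 ratio of the members was -0.36 in mRNA, 0.05 in footprints and 0.66 in efficiency, beside 0.01, 0.02 and 0.00 over all measured genes. Because the mRNA ratio is the divisor of efficiency, an error in it moves efficiency the other way. The members were chosen with earlier results of these data known, so the shares beside all genes are descriptions and no test.

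With total counts in place of TMM, the mRNA median over all genes was 0.13 instead of 0.01. The genes past 1.5-fold then numbered 1493 higher and 746 lower, against 1036 and 1038 under TMM. In efficiency the same scaling moved that split from 972 higher and 939 lower to 760 and 1200. Among the members it brought MCL1 past 1.5-fold in mRNA, for 2 higher and 3 lower, and gave 4 higher and 2 lower in efficiency. No member past 1.5-fold changed direction under any of the scalings. The mRNA interval of BNIP1, below 0 under TMM, holds 0 with total counts, where its ratio was -0.38 instead of -0.50. That of BID, which holds 0 under TMM, lies below 0 with upper-quartile scaling, where its ratio was -0.29 instead of -0.27.

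**Figure D2:**
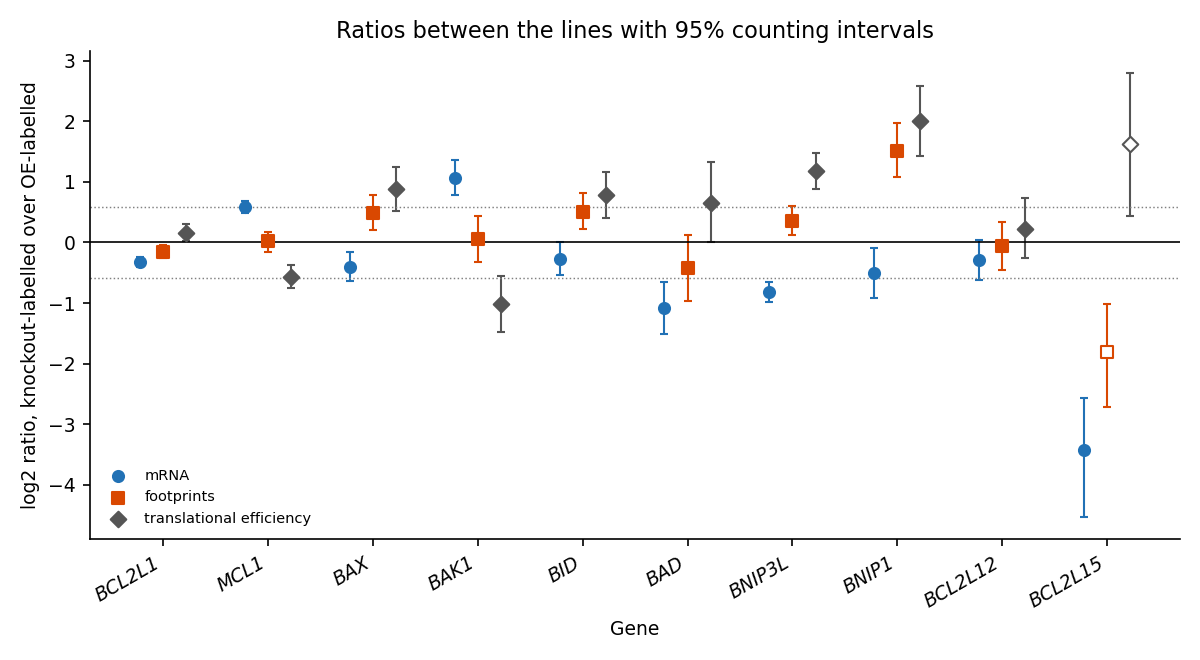
Log2 ratio (knockout-labelled to OE-labelled) of each member in mRNA, footprints and efficiency, with 95% intervals, dotted lines at 1.5-fold, and open symbols for values below the count minimum. BAK1 stands at 1.07 in mRNA and 0.05 in footprints, and BNIP1 at -0.50 and 1.51.

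Both guardians had footprint ratios near 0. BCL2L1, whose main product is the long form BCL-XL (transcript ENST00000307677, chromosome 20, 31664452 to 31722898), had 2495 RNA counts in the OE-labelled library and 2725 in the knockout-labelled library, and 1271 and 1384 footprint counts. Its log2 ratios were -0.32 (-0.40 to -0.24) in mRNA and -0.15 (-0.26 to -0.04) in footprints, so it was slightly lower in the knockout-labelled library in both assays, within 1.5-fold. Exons of the antisense gene ABALON cover 37.4% of the exon bases of this transcript, and use of strand in counting is not given in the sources used here. MCL1, a guardian with a short-lived protein (ENST00000369026, chromosome 1, 150574556 to 150579590), had 1091 and 2225 RNA counts and 575 and 704 footprint counts. MCL1 mRNA was higher in the knockout-labelled library by just under 1.5-fold (log2 ratio 0.58, 0.48 to 0.69), while its footprints were level at 0.02 (-0.15 to 0.18). Its efficiency ratio was -0.57 (-0.76 to -0.38), also just inside 1.5-fold.

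The pore formers differed in direction in mRNA. BAX, which moves from the cytosol to mitochondria when activated (ENST00000345358, chromosome 19, 48954877 to 48961798), had 298 and 308 RNA counts and 163 and 277 footprint counts. In mRNA it stood at -0.40 (-0.63 to -0.16) and in footprints at 0.49 (0.20 to 0.78), on opposite sides of 0, giving 1.85-fold higher efficiency in the knockout-labelled line (log2 ratio 0.88, 0.52 to 1.25). The 40 measured genes around BAX had a median mRNA ratio of -0.25. BAK1, which resides in the outer mitochondrial membrane (ENST00000374467, chromosome 6, 33572552 to 33580242), had 141 and 403 RNA counts and 107 and 134 footprint counts. Its mRNA was 2.1-fold higher in the knockout-labelled library (log2 ratio 1.07, 0.79 to 1.36), above 97.7% of measured genes, and its footprints stood at 0.05 (-0.33 to 0.43). Efficiency of BAK1 was 2.03-fold lower (log2 ratio -1.02, -1.48 to -0.56). BAK1 thus had the highest mRNA ratio of the 10 members, and a footprint difference was not detectable at this depth. Its 40 neighbours had a median of 0.02 in mRNA.

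BAK1 and BCL2L15 were the members with the highest and the lowest mRNA ratio, and the 250 bases before their RefSeq starts (GRCh38.p14) are shown for that reason. Both windows lie on the minus strand, at chr6:33580277-33580526 for BAK1 and chr1:113887582-113887831 for BCL2L15, and both RefSeq starts lie 34 bases before the start of the listed transcript. Of the 10 members, 8 had an entry among the promoters used. Both strands were searched for TATAAA (the TATA box), CCAAT (the CCAAT box), GGGCGG (the GC box), TGANTCA (the AP-1 site) and CTTTGAT (the core of TCF sites), and matches are in capitals.
BAK1: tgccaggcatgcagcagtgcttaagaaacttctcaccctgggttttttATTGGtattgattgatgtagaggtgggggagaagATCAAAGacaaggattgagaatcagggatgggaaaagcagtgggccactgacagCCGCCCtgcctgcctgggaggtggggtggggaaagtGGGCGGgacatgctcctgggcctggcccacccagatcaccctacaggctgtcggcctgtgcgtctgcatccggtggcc
BCL2L15: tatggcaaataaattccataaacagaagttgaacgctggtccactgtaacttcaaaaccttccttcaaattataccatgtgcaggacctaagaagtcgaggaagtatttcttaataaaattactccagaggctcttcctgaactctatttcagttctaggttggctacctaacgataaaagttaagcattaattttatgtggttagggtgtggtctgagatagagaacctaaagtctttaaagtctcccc

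The BAK1 window held 2 matches to GGGCGG, present in 42.6% of all 35116 promoter windows, 1 to CCAAT (32.0% of windows) and 1 to CTTTGAT (2.3% of windows). None of the 5 motifs was found in the BCL2L15 window. TATAAA occurs in 10.7% of windows and TGANTCA in 6.6%. The G and C content was 58.0% for BAK1, equal to the median of all windows, and 37.6% for BCL2L15, at or below which 9.5% of windows lie. These matches are letters in a window and no measure of binding.

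Both BH3-only genes were more than 1.5-fold higher in efficiency, and BAD alone of the pair was past 1.5-fold in mRNA. BID, whose protein is cut by caspase-8 and then carries the death receptor signal to mitochondria (ENST00000551952, chromosome 22, 17735552 to 17774665), had 208 and 235 RNA counts and 161 and 279 footprint counts. BID mRNA stood at -0.27 (-0.54 to 0.01), an interval that holds 0, and its footprints at 0.51 (0.23 to 0.81), within 1.5-fold. Efficiency was 1.72-fold higher (log2 ratio 0.78, 0.40 to 1.17). BAD, which binds BCL-XL unless phosphorylated and held by 14-3-3 proteins (ENST00000309032, chromosome 11, 64269834 to 64284669), was the least abundant of the BH3-only pair, with 117 and 75 RNA counts and 63 and 57 footprint counts. BAD mRNA was 2.12-fold lower in the knockout-labelled library (log2 ratio -1.08, -1.52 to -0.66), and its footprint interval of -0.96 to 0.12 holds 0. Its efficiency ratio of 0.66 had an interval that starts at 0.00 (to 1.33), and it was under 1.5-fold when scaled by total counts, at 0.57. GPR137, a gene on the opposite strand, covers 33.8% of the exon bases of BAD and had 109 and 155 RNA counts but only 9 and 16 footprint counts.

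The BNIP genes had the largest efficiency ratios among the measured members, both upward. BNIP1 (ENST00000351486, chromosome 5, 173144515 to 173164387) had 104 and 100 RNA counts against 56 and 194 footprint counts. Its mRNA ratio was -0.50 (-0.91 to -0.09) and its footprints were 2.84-fold higher in the knockout-labelled library (log2 ratio 1.51, 1.08 to 1.97), above 99.0% of measured genes. BNIP1 was the 1 member past 1.5-fold in footprints, and its efficiency ratio was 2.01 (1.43 to 2.59). BNIP3L (ENST00000380629, chromosome 8, 26382898 to 26413129) had 694 and 536 RNA counts and 235 and 366 footprint counts. BNIP3L mRNA was 1.76-fold lower (log2 ratio -0.82, -0.98 to -0.65), its footprints stood at 0.36 (0.12 to 0.61), and its efficiency was 2.26-fold higher (log2 ratio 1.18, 0.89 to 1.47). For both genes the assays pointed to opposite sides of 0, though with total counts the BNIP1 mRNA ratio was -0.38 and its interval holds 0. The 40 neighbours had mRNA medians of 0.11 around BNIP1 and -0.01 around BNIP3L.

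The remaining relatives were BCL2L12, within 1.5-fold throughout, and BCL2L15, with the lowest mRNA ratio of the family. BCL2L12, described in glioma as a restraint on p53 and effector caspases (ENST00000246785, chromosome 19, 49665566 to 49673916), had 150 and 167 RNA counts and 103 and 120 footprint counts. All 3 of its intervals held 0, with log2 ratios of -0.29 (-0.62 to 0.04) in mRNA, -0.06 (-0.45 to 0.34) in footprints and 0.23 (-0.26 to 0.73) in efficiency. IRF3, on the opposite strand, shares 21.7% of its exon bases and had 217 and 280 RNA counts and 232 and 275 footprint counts. BCL2L15, a proapoptotic relative described mainly in the gut (ENST00000393316, chromosome 1, 113880703 to 113887547), had 90 and 11 RNA counts and 50 and 17 footprint counts. In mRNA its log2 ratio was -3.42 (-4.53 to -2.57), among the lowest 0.1% of measured genes, and it passed the count minimum only through the OE-labelled library. In footprints it did not pass the minimum, with a log2 ratio of -1.81 (-2.72 to -1.01) in the same direction. Its 40 neighbours had a median mRNA ratio of 0.00, and 5.0% of them were past 1.5-fold.

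Set together, mRNA and footprint intervals lay on opposite sides of 0 for 3 of the 9 members measured in both assays, BAX, BNIP1 and BNIP3L, each lower in mRNA and higher in footprints. Over all 7260 genes measured in both, 7.67% had such opposite intervals, 4.05% in this direction and 3.62% in the reverse, in which no member lay. The place of BNIP1 among these members, and the absence of BID, depend on the scaling. With total counts the BNIP1 mRNA ratio was -0.38 instead of -0.50, a shift that carries its upper limit of -0.09 above 0. With upper-quartile scaling the BID mRNA ratio was -0.29 instead of -0.27, a shift that carries its upper limit of 0.01 below 0. The BID footprint interval lay above 0 (0.23 to 0.81 under TMM), so BID would then join them. Under TMM the efficiency interval lay above 0 for 6 members (BCL2L1, BAX, BID, BAD, BNIP1 and BNIP3L), against 22.8% of genes. It lay below 0 for MCL1 and BAK1, against 22.9%. With total counts the efficiency ratios of BCL2L1 and BAD were 0.07 and 0.57 instead of 0.16 and 0.66. That shift carries their lower limits of 0.03 and 0.00 below 0, so for these members the scaling decides.

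**Figure D3:**
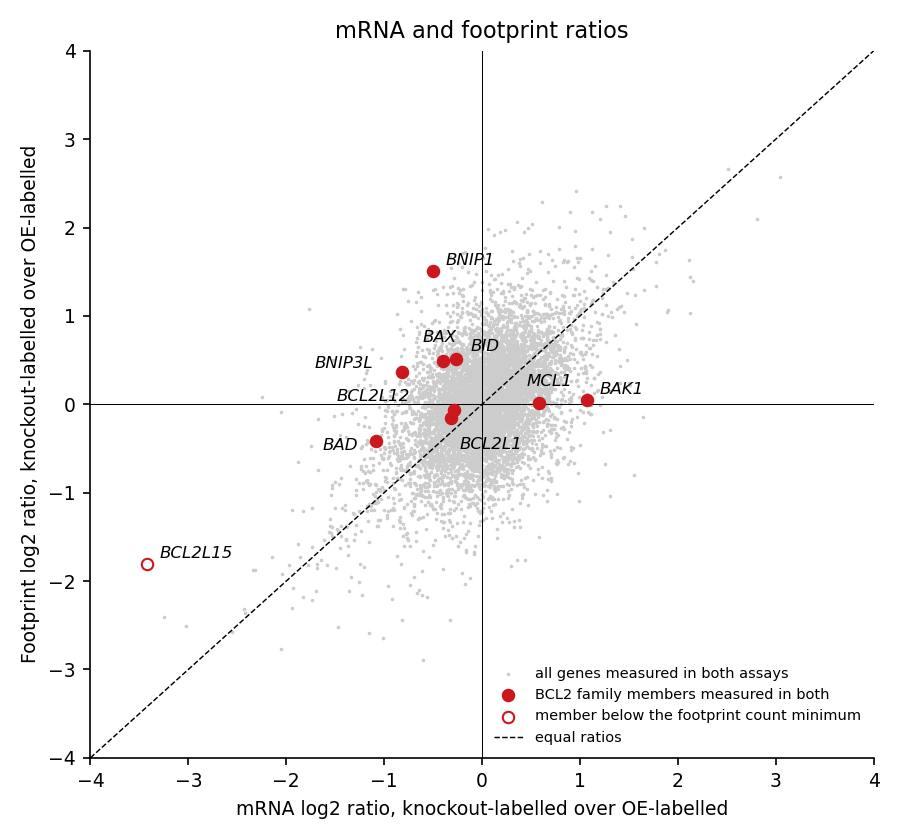
mRNA log2 ratio (x) against footprint log2 ratio (y), knockout-labelled over OE-labelled, for all 7260 genes measured in both assays (grey; 5 lie beyond the axes) and the members (red; open for BCL2L15, below the footprint minimum). BAX, BID, BNIP1 and BNIP3L lie left of and above the origin, and MCL1 and BAK1 lie on the right near a footprint ratio of 0.

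By Euclidean distance in the plane of both ratios, over 7260 genes, the genes most like BAK1 were JADE1 (distance 0.034), ENO3 (0.038) and CLSTN3 (0.041). Those nearest to BAD were GALM (0.049), TPRG1L (0.057) and RAB20 (0.059), and those nearest to BNIP3L were NME7 (0.018), RPL31 (0.054) and RAB8A (0.098). BNIP1 lay in a thinner region, with POLK at a distance of 0.187, CEP295 at 0.200 and PURA at 0.207. Each pattern rests on 2 ratios from 4 libraries.

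Within each line, footprint CPM over RNA CPM was taken as the ribosome load of an mRNA relative to the library. The part of the transcript that was counted is not known. Whether the order of genes by this ratio follows the coding share of their transcripts was not tested. In the OE-labelled line the 9 members measured in both assays had a median log2 value of 0.10, beside 0.26 for all 7260 genes (quartiles -0.44 and 0.82), and 0 of them lay above the upper quartile. BNIP3L was the lowest at -0.57 (-0.79 to -0.36), and BID the highest at 0.62 (0.31 to 0.92). BCL2L1, MCL1, BAX, BAD and BNIP1 lay between 0.02 and 0.12, with overlapping intervals. In the knockout-labelled line the median of the members was 0.59, beside 0.19 for all genes (quartiles -0.57 and 0.77), and the members were more spread. BNIP1 stood at 2.02 (1.66 to 2.38), above 99.4% of genes, BID at 1.31 (1.06 to 1.57), above 92.1%, and BAX at 0.91 (0.67 to 1.15), above 80.3%. MCL1 stood at -0.60 (-0.72 to -0.47) and BAK1 at -0.52 (-0.82 to -0.24), above 24.1% and 26.1% of genes. BNIP3L went from above 21.6% of genes in the OE-labelled line to above 64.0% in the knockout-labelled line. BCL2L1 stayed at 0.02 and 0.09, and BCL2L12 at 0.45 and 0.59, with overlapping intervals between the lines. BCL2L15, below the count minimum, had 0.15 (-0.39 to 0.66) and 1.67 (0.51 to 2.93).

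**Figure D4:**
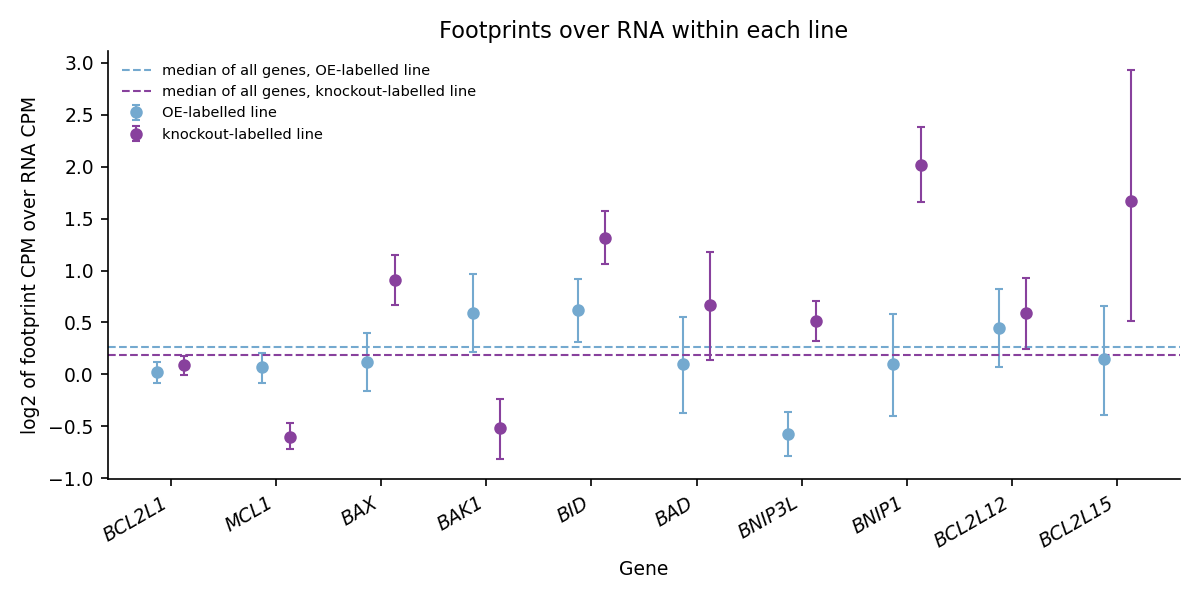
Log2 of footprint CPM over RNA CPM for each member in the OE-labelled and the knockout-labelled line, with 95% intervals, and dashed lines at the medians of all genes (0.26 and 0.19). BNIP1 goes from 0.10 to 2.02, and BAK1 goes from above the median (0.59) to below it (-0.52).

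The rest of the apoptosis machinery was taken from 7 lists of 60 genes, of which 58 were in the files. In mRNA 47 were measured, with 5 at least 1.5-fold higher and 5 lower (21.3%, beside 21.0% of all genes). In footprints 7 of 35 were higher and 2 lower (25.7%, beside 29.0%), and in efficiency 5 were higher and 3 lower (22.9%, beside 26.3%). These shares are near those of all genes, and the medians were 0.02, 0.05 and 0.06. In footprints, CASP4, BIRC2 and TNFRSF21 passed the count minimum only through the knockout-labelled library, and DIABLO and RIPK1 only through the OE-labelled library.

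All of the other guardians except BCL2L2 were scarce. BCL2 had 11 and 10 RNA counts and 0 footprint counts (95% upper limits of 1.35 and 1.13 CPM). BCL2A1 had 0 and 3 RNA counts, and BCL2L10 had none. BCL2L2 was low in footprints only, with 279 and 421 RNA counts (log2 ratio 0.15) but 12 and 10 footprint counts. Among other relatives, the pore former BOK stood at -0.25 in mRNA and 0.74 in footprints, with an efficiency ratio of 1.00 (0.44 to 1.56). BCLAF1, a nuclear protein that binds BCL2 family members, stood at 0.68 in mRNA and 0.98 in footprints. Of the other BH3-only genes, BBC3 (PUMA) was at -0.64 and BCL2L11 (BIM) at -0.67 in mRNA, whereas PMAIP1 (NOXA), which binds MCL1, had 340 and 511 RNA counts and stood at 0.14 in both assays.

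In the list of mitochondrial pore and released factors, 0 of 10 measured genes were past 1.5-fold in mRNA, beside 21.0% of all genes. SLC25A5, an adenine nucleotide carrier, stood at 0.25. DIABLO, which blocks inhibitors of apoptosis once released, was at -0.84 in footprints and -1.12 (-1.77 to -0.47) in efficiency. CASP4, an inflammatory caspase, was higher in both assays (1.27 and 1.47). In mRNA, CASP9 stood at 1.22 and CASP10 at -1.06, and DFFA, the inhibitor of the caspase-activated nuclease, at 0.17. CASP9 had 29 and 93 RNA counts and passed the count minimum only through the knockout-labelled library. Its 48 and 30 footprint counts, below the minimum, went the other way (-0.95, -1.66 to -0.27). The 6 inhibitors of apoptosis measured in mRNA were within 1.5-fold there (21.0% of genes were past it), and 3 of 5 were past it upward in footprints, beside 15.0% of genes. BIRC2 (cIAP1) had 36 and 176 footprint counts (2.0, 1.49 to 2.57), XIAP 72 and 146 (0.74, 0.33 to 1.17) and CFLAR, which restrains caspase-8, 61 and 134 (0.85, 0.41 to 1.32). Of these, BIRC2 passed the count minimum only through the knockout-labelled library. BIRC3, below the minimum with 25 and 14 footprint counts, was lower there (-1.09, -2.17 to -0.11). BIRC6 stood at -0.13 in mRNA and -0.11 in footprints.

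Among death receptors and adaptors, the list upstream of BID, FAS stood at -0.59 and TRADD at -0.70 in mRNA. TNFRSF1A was at 0.70 in mRNA and 0.02 in footprints. TNFRSF21 stood at -0.03 in mRNA and 0.62 in footprints. RIPK1, the kinase that couples these receptors to survival or death, had 110 and 47 footprint counts (-1.49, -2.03 to -1.0). The TRAIL receptor TNFRSF10B, with the highest counts of the list, stood at 0.33 and 0.45.

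**Figure D5:**
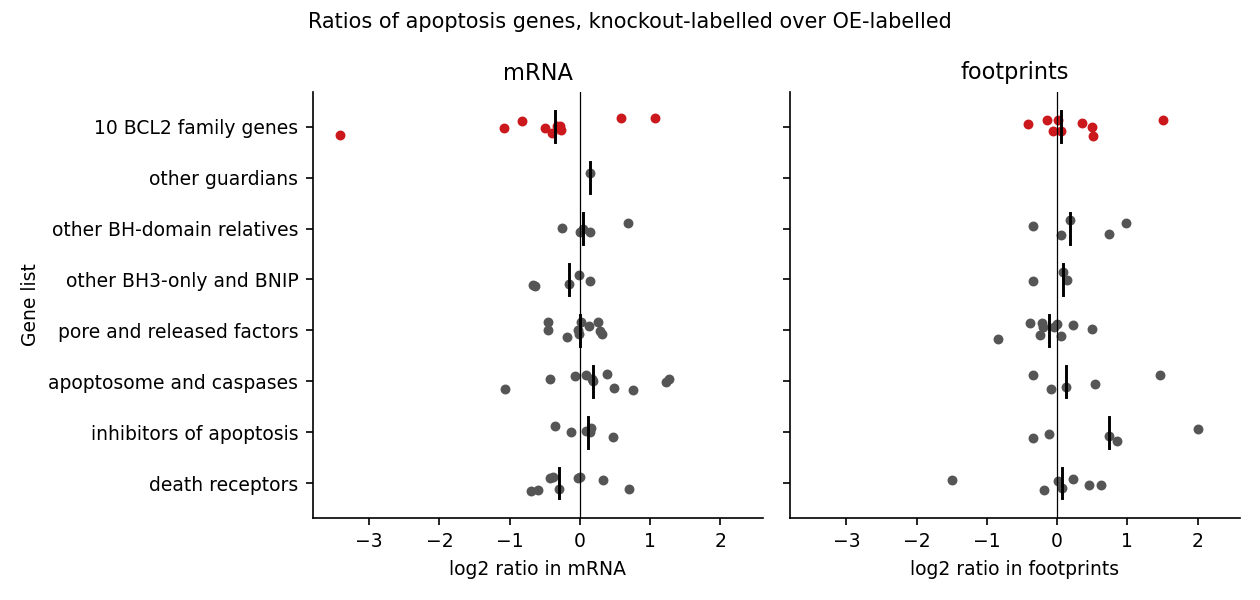
mRNA (left) and footprint (right) log2 ratios of the measured BCL2 family members (red) and of the measured genes of the 7 other apoptosis lists (grey), with a bar at each list's median. Members have a median of -0.36 in mRNA and 0.05 in footprints, and the inhibitors of apoptosis reach 2.0 in footprints (BIRC2, with 36 and 176 counts).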

How the data were processed

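The authors deposited raw counts, whole numbers for 1 listed transcript of each gene, per the file headers. Size selection kept 18 to 34 nt for footprints and 18 to 50 nt for RNA, and libraries had random identifiers of 4 and 5 nt and 15 PCR cycles, per the labels' protocols. The submitters' processing notes name cutadapt 1.10, Bowtie 1.1.2, HISAT2 2.1.0 and GRCh38. The sources used here give no counter, annotation, counted part of the transcript, strand use or duplicate removal. Intervals are too narrow where PCR copies were counted.

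Counts were scaled within each assay by TMM (edgeR 4.0.16, R 4.3.3), with 0.5 added to each count. Intervals of single ratios are exact conditional binomial (Clopper-Pearson) and those of efficiency are Wald intervals from 4 counts. Within-line values used library totals. An interaction model needs replicates and was not fitted. Neighbours are the 20 measured genes on each side, or 24 in all for BID. Of 19192 listed transcripts, 19176 were found in GENCODE 29.

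All 10 members are named. Genes of the other lists are named when at least 1.5-fold apart with an interval without 0 in an assay where they were measured, or when highest in count of their list. The genes at 0 or near it among guardians are named outside this rule. Some genes that the rule or the marker lists hold are not reported here. The members and lists were chosen with earlier results of these data known. On simulated Poisson counts with 200 changed genes, 96.0% of 2-fold changes in mRNA (9829 genes) passed 1.5-fold, and in efficiency (7225 genes) 98.9% did. Intervals held the simulated ratio for 95.7% and 95.0% of genes. The simulated counts carried counting error alone, so these shares are no measure of replicate spread or of PCR copies. They were scaled by the library totals used to draw them, without TMM, so error in the scaling is not covered either. Other settings tried were scaling by DESeq2 1.42.0, by total counts and by upper quartile, count minimums of 10, 200 and none, 5 added counts, a threshold of 2-fold, and intervals without 0. Scripts ran in Python 3.11.15 with scipy 1.17.1 and pandas 2.3.3.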

Additional observations from a re-analysis of the deposited data

How the results depend on the processing

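No paired analysis was possible because each line has 1 library per assay. No ratio of a single member past 1.5-fold changed sign under another scaling or with 5 counts added. With a minimum mean count of 200, which leaves 6 members in mRNA and 5 in the other comparisons, 2 members were past 1.5-fold in mRNA, 0 in footprints and 3 in efficiency, and the footprint median was 0.36. With a minimum of 10 or none, BCL2L15 entered and 2 members were past 1.5-fold in footprints. At a threshold of 2-fold, 3 members remained in efficiency.

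For the other apoptosis genes (10 in mRNA, 9 in footprints and 8 in efficiency), the 2-fold threshold left 3 in each comparison. A minimum of 200 left 2, 1 and 1, and no minimum gave 17, 21 and 20. A minimum of 10 gave 16 in footprints and 15 in efficiency. With full transcript length as divisor, 2 of 10 members kept their rank by level in OE-labelled RNA. In a setting chosen after seeing the data, the median of the neighbours was subtracted from each mRNA ratio, and 5 members were past 1.5-fold, BNIP1 in addition at -0.61. The other settings moved the member counts by at most 1.5 times. Depth limits BAD, BNIP1, BAK1, BCL2L12 and BCL2L15 most, whose footprint counts were under 200 in both libraries.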

Other observations

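Partners of the members outside apoptosis proper were also measured. BNIP1 works in the syntaxin-18 complex of the endoplasmic reticulum, and of 9 measured partners 2 were at least 1.5-fold higher and 1 lower in footprints, beside 29.0% of all genes. The SNARE gene SEC22B had 173 and 536 footprint counts (log2 ratio 1.35, 1.11 to 1.61) with mRNA at 0.37, and its efficiency ratio was 0.99 (0.66 to 1.31). NSF, the ATPase that takes SNAREs apart, stood at 0.59 in footprints, the tether gene NBAS at -0.66, and SCFD2 at 0.66 in mRNA and -0.23 in footprints. STX18 itself had 57 and 37 RNA counts and was below the count minimum.

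Of the mitophagy genes beside BNIP3L, 14 were measured in footprints, with FUNDC1, a mitophagy receptor, at 1.00 (0.53 to 1.5) and the receptor OPTN at -0.99 (-1.26 to -0.72). BECN1, a BH3-containing autophagy protein that binds BCL2 relatives, was at -0.41 in mRNA and 0.47 in footprints, with an efficiency ratio of 0.88 (0.52 to 1.25). CALCOCO2 stood at -0.64 and GABARAPL2 at 0.61 in mRNA, and MAP1LC3B at 0.33 and 0.31 in mRNA and footprints. Of the genes that set MCL1 turnover, the ubiquitin ligase gene MARCH5 was higher in both assays (0.87 and 0.84). The deubiquitinase genes USP9X (-0.65, -0.80 to -0.49) and USP13 (-0.76, -1.16 to -0.36) were lower in efficiency, 2 of 5 measured, beside 12.9% of all genes. In mRNA these 2 stood at 0.35 and 0.44, and in footprints at -0.30 and -0.32, all within 1.5-fold. The ligase gene HUWE1 stood at -0.25 in efficiency. All 7 genes of the 14-3-3 proteins, which hold BAD, were within 1.5-fold in mRNA, footprints and efficiency, where 21.0%, 29.0% and 26.3% of all genes were past it, with YWHAE, the most abundant, at 0.01 and 0.36 in mRNA and footprints.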
